A study of Homo sapiens with 6 samples.

Results

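Long intergenic noncoding RNA (LINC) genes were followed through 4 lists of regions occupied by RNA pol II in HepG2 cells, a human hepatoma line. Every region whose assigned gene carried a symbol beginning with LINC was taken, which gave 4002 of 271336 regions, counted in each list, at 469 genes. RPB1, the largest subunit of RNA pol II, and RPB1 phosphorylated on Ser2 of its C-terminal domain (phospho-Ser2) had been profiled by ChIP-seq in 2 untreated lines, SHP-1 WT (WT) and SHP-1 KO (KO), and each antibody was sequenced once in each line. WT cells had passed through CRISPR with a control construct, and KO cells carried a CRISPR deletion of PTPN6, the gene of the phosphatase SHP-1. Both were clonal lines, so a difference between the lines cannot be told apart from a difference between single clones. With 1 library per condition no comparison below has a replicate check and none was tested. The intervals given are 95% Wilson intervals of a share and cover counting error only.

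LINC genes are transcribed by RNA pol II into capped, mostly spliced transcripts that are not translated, and many are expressed at low levels and in few tissues. RPB1 piles up close to transcription starts, where the polymerase pauses, whereas Ser2 phosphorylation is added during elongation and is known to build up along gene bodies and past gene ends. Each region had been assigned to the gene with the nearest transcript start, so a region can carry a LINC name while lying inside, or downstream of, another gene.

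The WT lists held 1029 LINC regions for RPB1 at 383 genes and 1265 for phospho-Ser2 at 258 genes. The KO lists held 846 at 301 genes and 862 at 214 genes. LINC regions made up 2.23% (95% interval 2.10 to 2.37) of all RPB1 regions in WT and 2.03% (1.90 to 2.17) in KO cells. Their share among phospho-Ser2 regions was 1.23% (1.17 to 1.30) in WT and 1.06% (0.996 to 1.14) in KO cells. Of the 469 genes, 136 had regions in all 4 lists and 117 in 1 list. These counts were not made over all genes and so describe the members only. All 469 gene identifiers matched RefSeq, where 464 are long noncoding RNA genes, 3 transcribed pseudogenes and 2 protein-coding genes. Of the hepatocyte markers ALB, AFP, APOA1, APOB, SERPINA1, TTR, FGB and HNF4A, 7 of 8 had a promoter RPB1 region in both lines, the exception being APOA1. A promoter RPB1 region was listed for 1 of 3 neuronal markers (SYP) in both. PTPN6 itself had promoter RPB1 regions in both lines, with a highest fold enrichment of 24.0 in WT and 17.2 in KO cells, which does not check the deletion because the edit need not remove the promoter.

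Promoter sequences were compared to see what occupied LINC starts share. RefSeq windows on GRCh38.p14, from 250 bases before to 50 bases after a start, were found for 341 of the 469 genes, 373 windows in all. The 141 LINC windows that lay in a WT RPB1 region had a median GC content of 65.3% and 24.0 CpG dinucleotides. The 215 that lay in no region of any list had 49.0% and 4.00, close to the 46.7% and 3.00 of 1408 windows of LINC genes without a region. All 14997 human promoter windows in a WT RPB1 region had 66.3% and 27.0, against 58.7% and 14.0 over all 35116 windows. A GC box (GGGCGG, either strand) was present in 68.1% of occupied and 18.1% of unoccupied LINC windows, beside 45.0% of all windows and 72.7% of all occupied windows. A TATA box (TATAAA, either strand) was present in 7.80% of occupied and 15.8% of unoccupied LINC windows, beside 11.5% of all windows and 4.42% of all occupied windows. CCAAT (either strand) hardly differed, with 34.0% and 34.9%, beside 34.6% of all windows. The GC box itself holds a CpG, so these measures are not separate, and a match is a description of the sequence only.

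The windows of 5 genes that recur in the results are printed 5′ to 3′ in the direction of the LINC transcript, with CpG dinucleotides in capitals. LINC01962 and LINC01003 are CpG-rich starts with strong RPB1 and no protein-coding start within 1 kb, LINC01137 faces the start of a coding gene, and LINC02139 and LINC00261 are CpG-poor starts with strong RPB1.

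LINC01962, chr5:181191859-181192158, minus strand: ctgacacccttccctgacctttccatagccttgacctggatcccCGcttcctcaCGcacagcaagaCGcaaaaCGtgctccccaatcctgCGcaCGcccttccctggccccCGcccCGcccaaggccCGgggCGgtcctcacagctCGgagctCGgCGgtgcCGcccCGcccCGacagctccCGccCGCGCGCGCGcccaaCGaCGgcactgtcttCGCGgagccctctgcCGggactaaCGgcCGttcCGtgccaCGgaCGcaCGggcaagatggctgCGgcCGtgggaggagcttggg

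LINC01003, chr7:152463874-152464173, plus strand: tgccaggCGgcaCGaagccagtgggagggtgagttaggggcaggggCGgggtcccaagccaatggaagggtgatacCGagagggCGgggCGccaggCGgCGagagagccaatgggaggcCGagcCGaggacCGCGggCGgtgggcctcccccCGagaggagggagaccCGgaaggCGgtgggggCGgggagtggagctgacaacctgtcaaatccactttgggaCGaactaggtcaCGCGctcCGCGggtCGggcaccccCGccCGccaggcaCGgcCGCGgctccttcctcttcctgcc

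LINC01137, chr1:37474394-37474693, minus strand: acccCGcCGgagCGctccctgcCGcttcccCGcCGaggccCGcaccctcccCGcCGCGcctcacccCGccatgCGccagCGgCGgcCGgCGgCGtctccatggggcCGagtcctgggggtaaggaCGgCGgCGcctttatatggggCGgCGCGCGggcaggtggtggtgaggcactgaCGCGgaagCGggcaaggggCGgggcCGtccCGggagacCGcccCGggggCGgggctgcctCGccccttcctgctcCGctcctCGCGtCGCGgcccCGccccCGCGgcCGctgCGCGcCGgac

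LINC02139, chr16:85136900-85137199, plus strand: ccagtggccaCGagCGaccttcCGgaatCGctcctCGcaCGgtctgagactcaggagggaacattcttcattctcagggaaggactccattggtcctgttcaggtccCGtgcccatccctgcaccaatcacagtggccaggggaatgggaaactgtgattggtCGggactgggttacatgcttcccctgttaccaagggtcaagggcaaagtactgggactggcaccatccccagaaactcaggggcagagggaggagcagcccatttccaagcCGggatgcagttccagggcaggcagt

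LINC00261, chr20:22578593-22578892, minus strand: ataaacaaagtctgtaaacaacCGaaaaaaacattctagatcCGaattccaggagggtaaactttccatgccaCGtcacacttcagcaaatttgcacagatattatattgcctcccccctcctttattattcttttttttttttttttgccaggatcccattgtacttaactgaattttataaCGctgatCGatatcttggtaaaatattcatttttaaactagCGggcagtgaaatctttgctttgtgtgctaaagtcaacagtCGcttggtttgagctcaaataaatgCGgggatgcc

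The LINC01962 window has a GC content of 71.3% with 35 CpG, and that of LINC01003 71.7% with 28. The LINC01137 window reaches 80.7% with 47 CpG. The LINC02139 window has 58.7% and 9 CpG and no GC box, and the LINC00261 window 37.0% and 8 CpG, with a TATA box and no GC box. All 5 windows lay in an RPB1 region of both cell lines.

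LINC regions lay less often at promoters, here within 1 kb of an annotated start, than regions as a whole. In WT cells 24.1% (21.6 to 26.8) of 1029 RPB1 LINC regions were promoter regions, against 44.6% of all RPB1 regions. In KO cells the share was 28.4% (25.4 to 31.5) of 846, against 47.4%. For phospho-Ser2 it was 14.8% (12.9 to 16.8) of 1265 in WT and 17.6% (15.2 to 20.3) of 862 in KO cells, against 23.9% and 25.1% of all regions. Distal or downstream regions took 37.5% and 33.3% of RPB1 LINC regions in WT and KO cells, against 15.0% and 13.2% of all. They took 33.0% and 32.3% of phospho-Ser2 LINC regions, against 12.1% and 11.4%.

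**Figure D1:**
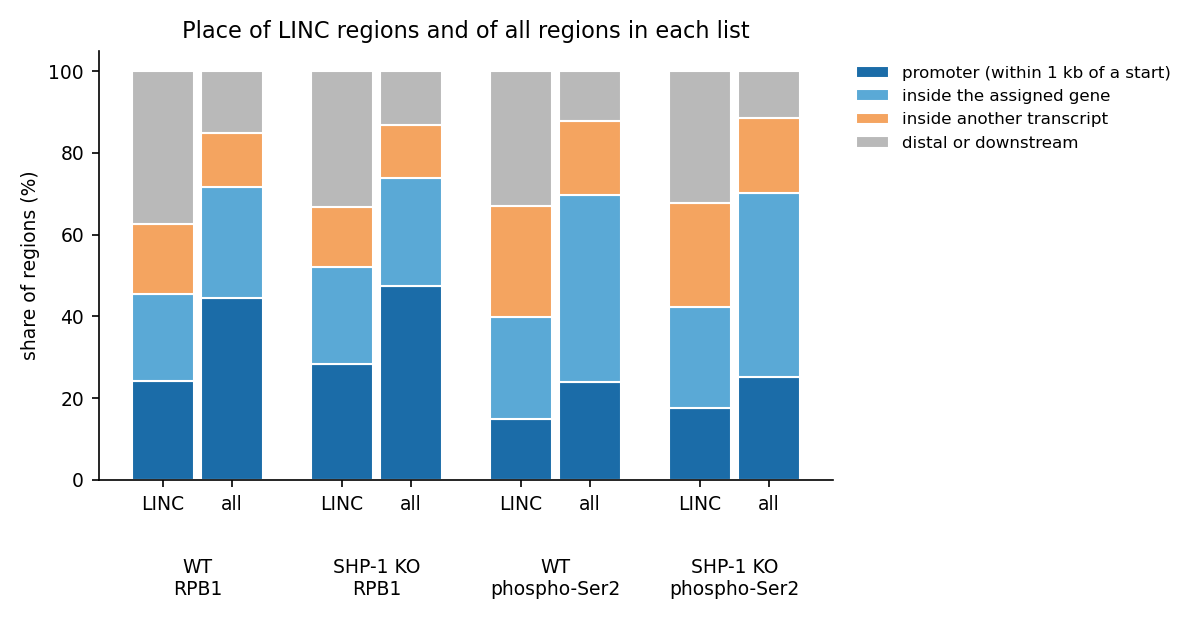
Share of regions in percent (y axis) by place, as stacked bars, for LINC regions and for all regions of each of the 4 lists (x axis). The promoter part of the LINC bar is lower than that of all regions in every list (24.1% against 44.6% in WT RPB1), and the distal part is larger (37.5% against 15.0%).

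Regions inside the assigned LINC gene made up 21.3% of WT and 23.8% of KO RPB1 LINC regions, and 25.1% and 24.6% of phospho-Ser2 LINC regions. Over all regions the corresponding shares were 27.0% and 26.5% for RPB1 and 45.7% and 45.0% for phospho-Ser2. Phospho-Ser2 thus exceeded RPB1 inside genes by less at LINC genes than over all genes. Inside LINC genes the median distance from the start was 4004 bp for WT RPB1 and 5627 bp for WT phospho-Ser2, and 4034 and 5479 bp in KO cells. A further 27.1% of WT and 25.5% of KO phospho-Ser2 LINC regions lay inside a transcript of another gene, against 18.3% and 18.5% of all regions, and 193 of those 343 WT regions and 137 of those 220 KO regions were inside a protein-coding gene. Of the distal phospho-Ser2 LINC regions, 42.0% in WT and 46.8% in KO cells lay within 10 kb past the end of a protein-coding gene, against 9.84% and 13.5% of distal RPB1 LINC regions. The same shares over all distal regions were 74.5% and 78.6% for phospho-Ser2 and 48.5% and 53.3% for RPB1. The LINC name of such a region says which start is nearest and not which gene the polymerase was transcribing.

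Promoter regions were the strongest LINC regions for RPB1. Their median fold enrichment over input was 9.80 in WT and 8.45 in KO cells, against 4.95 and 4.90 inside the LINC gene. Promoter regions of all genes had 11.9 and 9.89. For phospho-Ser2 the LINC medians were close, with 3.81 and 4.18 at promoters and 3.52 and 3.74 inside the gene. The median over all LINC regions was 5.51 and 5.37 for RPB1 and 3.61 and 3.82 for phospho-Ser2 in WT and KO cells.

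A protein-coding start within 1 kb went with stronger and longer RPB1 regions at LINC promoters. Of 248 WT RPB1 LINC promoter regions, 45 (18.1%, 13.8 to 23.4) had such a neighbour, and in 40 of the 45 the coding gene ran on the opposite strand. Their median fold enrichment was 30.9 over a median of 1673 bp, against 8.38 over 643 bp for the others. In KO cells 39 of 240 had a coding start within 1 kb, with medians of 26.6 and 1583 bp against 7.39 and 558 bp. For phospho-Ser2 the same split gave 4.06 against 3.78 in WT and 4.69 against 4.13 in KO cells. Reads at a shared start cannot be given to either gene, so these values describe the shared start.

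The 10 LINC promoters with the highest RPB1 enrichment in WT cells ranged from 60.4 to 78.6, and 6 of them had a coding start within 1 kb. LINC01962 was highest, at 78.6 in WT and 37.8 in KO cells. LINC01137, next to the start of ZC3H12A, which encodes an mRNA-cleaving RNase, gave 78.3 and 62.9. LINC01126, next to ZFP36L2, which encodes an mRNA decay factor, gave 77.0 and 60.2. These values were lower in KO cells. LINC00637, at the start of PPP1R13B, an apoptosis-linked partner of p53, gave 74.6 and 50.7. LINC01003 and LINC00673, both without a coding start within 1 kb, gave 72.5 and 66.0, and 71.0 and 45.0. LINC00167, at the start of PRDM10, gave 70.7 and 40.5. The remaining 3 of the 10 were LINC01569 with 63.1 and 47.7, LINC02482 with 62.2 and 63.1, and LINC01770 with 60.4 and 35.6. In 9 of the 10 the KO value was the lower, LINC02482 being the exception. Choosing genes by a high WT value by itself favours lower KO values. Of all 147 LINC genes with a promoter RPB1 region in both lines, 113 were lower in KO cells. Promoter phospho-Ser2 regions were assigned to 8 of these 10 genes in WT and to 7 in KO cells. LINC01137 and LINC00637 had none in either line, although the LINC01137 window lay in a phospho-Ser2 region of both lines, and the LINC00637 window in one of KO cells, that carried another gene's name.

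The order of LINC promoters was different for phospho-Ser2. LINC01529, which RefSeq now lists as a transcribed pseudogene, was highest in WT cells at 21.6 and gave 9.17 in KO cells, with RPB1 at 22.7 and 13.7. Its WT phospho-Ser2 region reached into the 10 kb past the end of PRODH2, so it cannot be given to LINC01529 alone. LINC00235, at the end of RAB11FIP3, gave phospho-Ser2 values of 18.5 and 22.3. LINC02139 gave 13.2 and 4.83. LINC00641 gave 12.9 and 11.3 in a single region of 11755 bp in WT and a comparable one of 11688 bp in KO cells, past the end of HNRNPC, an hnRNP gene. Its RPB1 promoter values were 6.12 and 7.91, so LINC00641 ranked at the 99.1 percentile of WT phospho-Ser2 regions and at the 56.6 percentile of WT RPB1 regions. LINC01341 gave phospho-Ser2 values of 12.4 and 4.92 over RPB1 values of 7.01 and 4.75. LINC01770, LINC00963, LINC01772, LINC00261 and LINC01089 completed the 10, with WT values of 12.3, 12.2, 10.5, 10.4 and 9.99. The regions of LINC01770, LINC01772 and LINC00261 likewise reached into the 10 kb past TMEM88B, NECAP2 and FOXA2. That of LINC01089 covered the start of RHOF. Among 84 LINC genes with a promoter region for both antibodies in WT cells, the phospho-Ser2 value exceeded the RPB1 value at 5, namely LINC00641, LINC00862, LINC01341, LINC01909 and LINC02478. In KO cells it did so at 4 of 68 genes. The 2 antibodies have separate enrichment scales, so these counts describe the lists and not relative amounts.

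RPB1 and phospho-Ser2 met less often at LINC genes than elsewhere when followed from RPB1. A phospho-Ser2 region overlapped 38.1% (35.2 to 41.1) of WT RPB1 LINC regions and 39.5% (36.2 to 42.8) of KO ones, against 58.9% and 58.2% of all RPB1 regions. These shares rest on an overlap of 1 bp, and with a reciprocal overlap of 50% they were 9.14% and 8.63%, against 12.5% and 12.4% of all. The share was lowest at distal regions, with 25.4% (21.3 to 30.0) in WT and 28.7% (23.8 to 34.3) in KO cells, against 50.2% and 53.6% of all. Inside other transcripts it was 43.2% (36.1 to 50.6) and 49.6% (40.9 to 58.3), against 70.8% and 73.5%. At promoters it was 44.8% (38.7 to 51.0) and 41.2% (35.2 to 47.6), against 55.6% and 52.0%. In the other direction, 30.8% (28.3 to 33.3) of WT and 35.0% (31.9 to 38.3) of KO phospho-Ser2 LINC regions met RPB1, above the 24.2% and 26.1% of all phospho-Ser2 regions. With a reciprocal overlap of 50% they were 7.51% and 8.24%, against 5.59% and 6.38%. At promoters the share at 1 bp reached 74.3% (67.6 to 80.1) and 75.0% (67.6 to 81.2), against 53.8% and 55.7%, and inside the gene 27.4% (22.8 to 32.5) and 29.2% (23.5 to 35.7), against 12.6% and 13.9%.

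**Figure D2:**
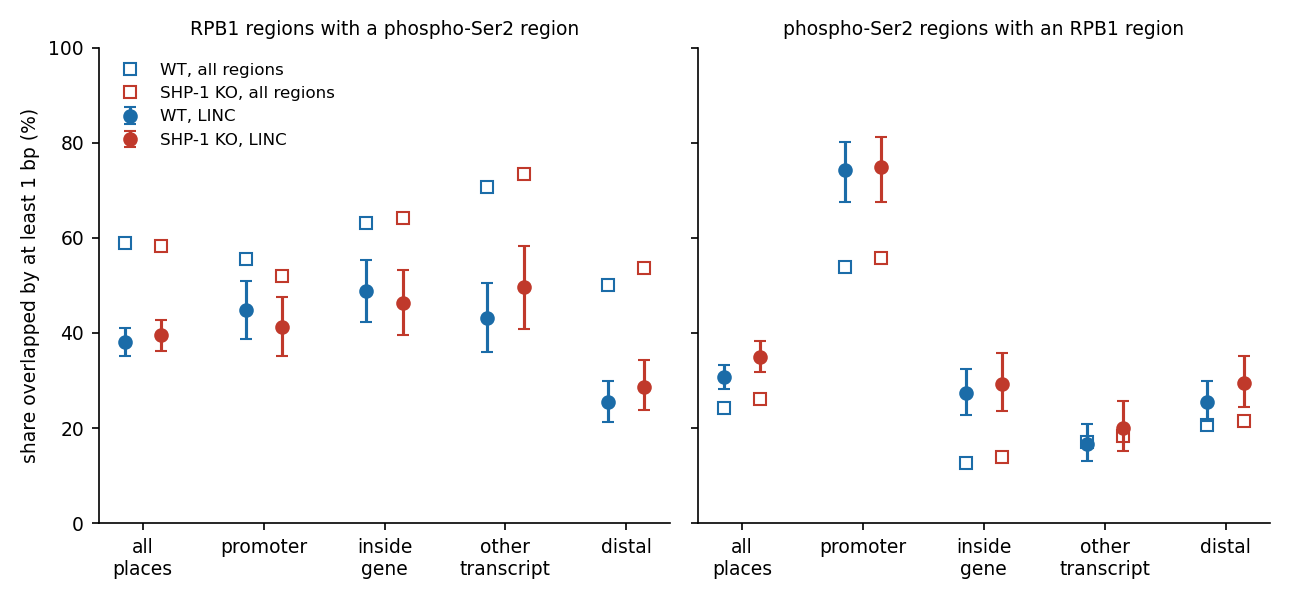
Share of regions in percent (y axis) that share 1 bp or more with the other antibody's regions in the same cells, by place (x axis). Filled circles are LINC regions with 95% Wilson intervals and open squares are all regions, in blue for WT and red for KO cells. RPB1 LINC regions (left) lie below all RPB1 regions at every place, and phospho-Ser2 LINC regions (right) lie above all phospho-Ser2 regions at promoters and inside genes.

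RPB1 promoter regions that met phospho-Ser2 were the stronger ones. Their median enrichment was 20.2 in WT and 16.2 in KO cells, against 6.73 and 6.28 for LINC promoters without a phospho-Ser2 region. By gene, 190 of 383 LINC genes with RPB1 in WT cells (49.6%) also had phospho-Ser2, and 151 of 301 (50.2%) in KO cells, beside 77.0% and 73.4% of all genes with RPB1. Conversely, 73.6% and 70.6% of LINC genes with phospho-Ser2 had RPB1, beside 85.7% and 86.4% of all. These shares were not adjusted for enrichment.

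KO cells had fewer LINC regions than WT cells for both antibodies. The KO to WT ratio of their number was 0.822 for RPB1, where all regions gave 0.904, and 0.681 for phospho-Ser2, where all regions gave 0.789. For RPB1 the ratio was close to that of all regions at promoters (0.968, all 0.960) and inside the gene (0.918, all 0.889), and lower in distal regions (0.731, all 0.794) and inside other transcripts (0.699, all 0.867). For phospho-Ser2 it was 0.813 at promoters (all 0.830), 0.667 inside the gene (all 0.776), 0.641 inside other transcripts (all 0.795) and 0.667 in distal regions (all 0.748). The number of RPB1 regions was lower in KO cells at 192 LINC genes, higher at 92 and equal at 118, or 47.8%, 22.9% and 29.4%, beside 37.5%, 25.2% and 37.3% of all genes. For phospho-Ser2 these counts were 177, 52 and 45, or 64.6%, 19.0% and 16.4%, beside 59.6%, 23.1% and 17.3%. The lists give no library depth, so its part in these ratios was not tested.

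Of WT RPB1 LINC regions, 57.4% (54.4 to 60.4) overlapped a KO region, against 61.9% of all, and 78.3% (75.3 to 80.9) of KO LINC regions overlapped a WT region, against 74.9% of all. For phospho-Ser2 the shares were 50.0% (47.3 to 52.8) from WT and 75.3% (72.3 to 78.1) from KO, against 52.2% and 69.9% of all. Promoter regions were shared most, at 77.4% and 87.5% for RPB1 and 67.9% and 80.3% for phospho-Ser2 counted from WT and from KO. The corresponding shares of all promoter regions were 76.5% and 86.8%, and 62.1% and 77.0%. Counted from WT, RPB1 LINC regions inside the gene were shared at 55.3%, against 48.3% of all. Those in other transcripts gave 51.1%, against 53.3%, and distal ones 48.7%, against 50.5%. Counted from KO, in the same order, they gave 66.2%, 77.2% and 79.4%, against 59.1%, 67.2% and 71.4%. Unshared regions were weak. The median enrichment of WT RPB1 LINC regions was 4.51 where no KO region overlapped and 7.56 where one did.

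Counted by gene, 282 of 402 LINC genes with RPB1 had regions in both lines, 101 (25.1%) in WT cells only and 19 (4.73%) in KO cells only. Over all 14746 genes with RPB1 these shares were 8.73% and 3.95%. With only regions at a promoter or inside the LINC gene, the genes with RPB1 in WT only numbered 48 and those in KO only 17. The shares over all genes were not recomputed this way, so these counts cannot be set against 8.73% and 3.95%. For phospho-Ser2, 198 of 274 LINC genes had regions in both, 60 (21.9%) in WT only and 16 (5.84%) in KO only, beside 14.1% and 4.23% of all genes. Most of these genes had a single region, which was so for 89 of the 101 and for all 19 with RPB1, and for 39 of the 60 and 13 of the 16 with phospho-Ser2. Among genes with exactly 1 WT RPB1 region, 46.1% of 193 LINC genes had none in KO cells, against 16.8% of all such genes. With 5 or more WT regions, it was 0 of 57 LINC genes, against 0.797% of all. The place of the regions was not matched between LINC genes and all genes, so its part was not tested. For promoter regions alone, 147 LINC genes had RPB1 in both lines, 33 in WT only and 17 in KO only, and 76, 33 and 10 had phospho-Ser2. As shares of the genes with a promoter region, WT only and KO only were 16.8% and 8.63% for RPB1, beside 7.64% and 4.51% of all genes, and 27.7% and 8.40% for phospho-Ser2, beside 18.9% and 8.29%.

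At LINC promoters occupied in both lines, RPB1 enrichment was lower in KO cells about as much as at promoters in general. The strongest promoter region of each of 147 genes gave a median KO to WT ratio of 0.741, beside 0.727 over 11250 genes. The KO value was lower at 113, higher at 33 and equal at 1. The lower and upper quartiles of the ratio were 0.609 and 0.984, beside 0.596 and 0.894 over all genes. It was lower by 2-fold or more at 10 (6.80%), beside 10.9% of all genes, and higher by 2-fold or more at 3 (2.04%), beside 0.684%. For phospho-Ser2, 76 genes gave a median of 0.993, beside 0.958 over 7191 genes, with 41 lower and 35 higher. The quartiles were 0.744 and 1.25, beside 0.774 and 1.18 over all genes. The paired regions did not overlap at 7 of the 147 RPB1 and 16 of the 76 phospho-Ser2 LINC pairs, a count not made over all genes. The KO phospho-Ser2 value was lower by 2-fold or more at 6 (7.89%), beside 3.63% of all genes, and higher at 1 (1.32%), beside 1.72%.

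**Figure D3:**
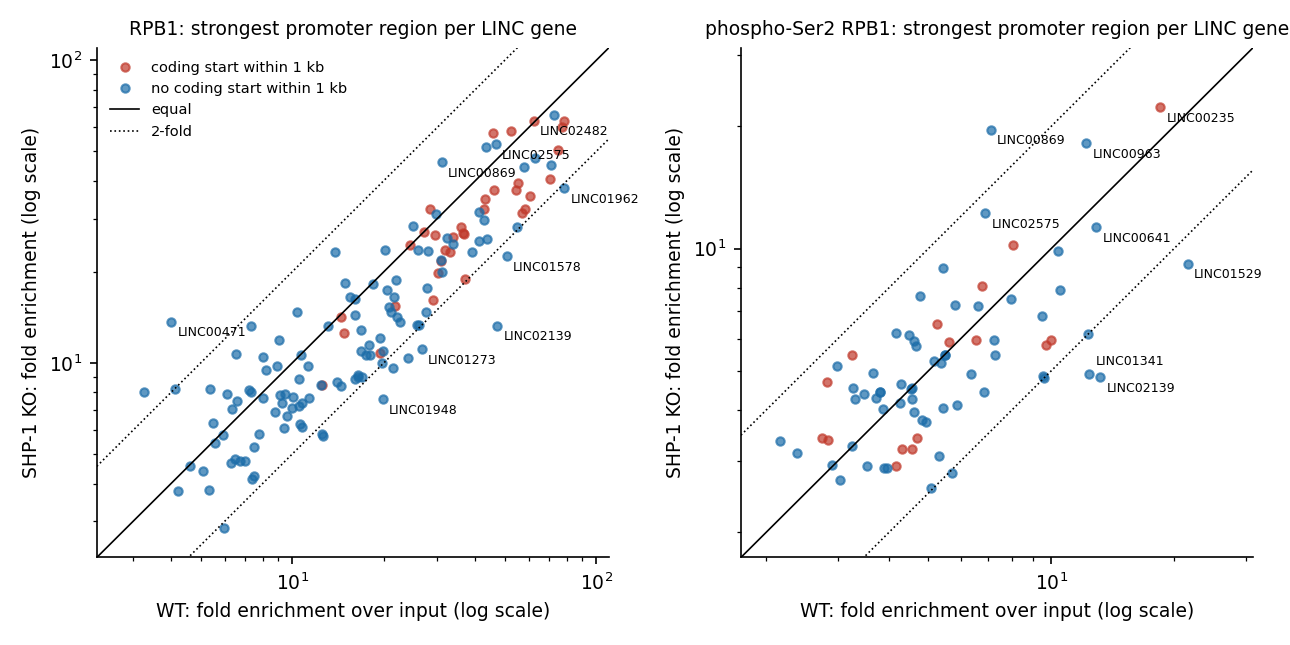
Fold enrichment over input of the strongest promoter region of each LINC gene in WT (x axis) and KO cells (y axis), both on log scales, for RPB1 (left, 147 genes) and phospho-Ser2 (right, 76 genes). Red points have a protein-coding start within 1 kb, the solid line marks equal values and the dotted lines a 2-fold difference. Most RPB1 points lie below the solid line (113 of 147), while phospho-Ser2 points lie on both sides (41 lower, 35 higher).

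The promoters past 2-fold were picked out by their values. LINC02139 had the lowest RPB1 ratio, 0.282, with 47.2 in WT and 13.3 in KO cells. LINC01948 gave 19.9 and 7.58. LINC01273, with its start 18280 bp from that of the liver transcription factor gene CEBPB, gave 26.7 and 11.1. LINC01578, now named CHASERR, a regulator of the neighbouring chromatin remodeller gene CHD2, gave 50.8 and 22.5. The others on the lower side were LINC01962, LINC00894, LINC02569, LINC01220, LINC01315 and LINC02313. The KO value of LINC02313, 2.85, ranked at the 0.264 percentile of KO RPB1 regions. On the higher side, LINC00471 gave 4.01 and 13.7, LINC01426 gave 4.12 and 8.24, and LINC01909 gave 3.27 and 8.03 in regions that did not overlap. Their WT values were low in the list, at the 17.1, 19.5 and 2.21 percentiles of WT RPB1 regions. For phospho-Ser2 the lower values were at LINC02139 (13.2 and 4.83), LINC01341, LINC01529, LINC01232 (in regions that did not overlap), LINC01770 and LINC01637, and the higher at LINC00869 (7.11 and 19.6). RPB1 at LINC00869 was also higher in KO cells, 46.0 against 31.0. Of 58 LINC genes with promoter pairs for both antibodies, LINC02139 alone was lower by 2-fold or more for both. The same count was not made over all genes, so it does not set LINC genes apart.

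LINC02139 lies on chromosome 16, with its start at 85137150 on the plus strand and the nearest coding start, that of CIBAR2, 24678 bp away. In WT cells it carried 17 RPB1 regions, of which the promoter region spanned 6297 bp (chr16:85131954-85138250), with 8 regions inside the gene at 3.75 to 6.50. In KO cells it carried 5, with a promoter region of 1690 bp and none inside the gene. Phospho-Ser2 showed 8 regions in WT, 4 of them inside the gene at 3.44 to 3.84, and 4 in KO cells with none inside. The regions before the start, which reach the promoter region, had phospho-Ser2 values of 4.92, 7.40 and 10.6 in WT cells and 3.65, 4.66 and 6.88 in KO cells.

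LINC00261 is a lncRNA gene beside FOXA2, the gene of an endoderm and liver transcription factor. At the LINC00261 start at 22578642, RPB1 values were 41.3 in WT and 31.6 in KO cells. The WT region ran to 22581004, into the WT phospho-Ser2 region that overlapped the end of FOXA2. Its value therefore cannot be given to LINC00261 alone. The KO region ended at 22578872. The RPB1 regions at an upstream start, 29.2 and 22.6, also covered the FOXA2 start and cannot be given to either gene. The strongest phospho-Ser2 regions, 10.4 and 9.86, overlapped the end of FOXA2, and the printed LINC00261 window lay in no phospho-Ser2 region of either line. Away from FOXA2, phospho-Ser2 was strongest close to the 3′ end of LINC00261. A region of 6036 bp at the 3′ end reached 9.17 in WT cells and one of 4154 bp there reached 8.13 in KO cells. Between the start and this region the WT list had 9 further phospho-Ser2 regions inside the gene, at 2.42 to 4.18, and 6 of these 9 were within 10 kb past the FOXA2 end. In all it had 8 RPB1 and 15 phospho-Ser2 regions in WT cells and 9 and 11 in KO cells.

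**Figure D4:**
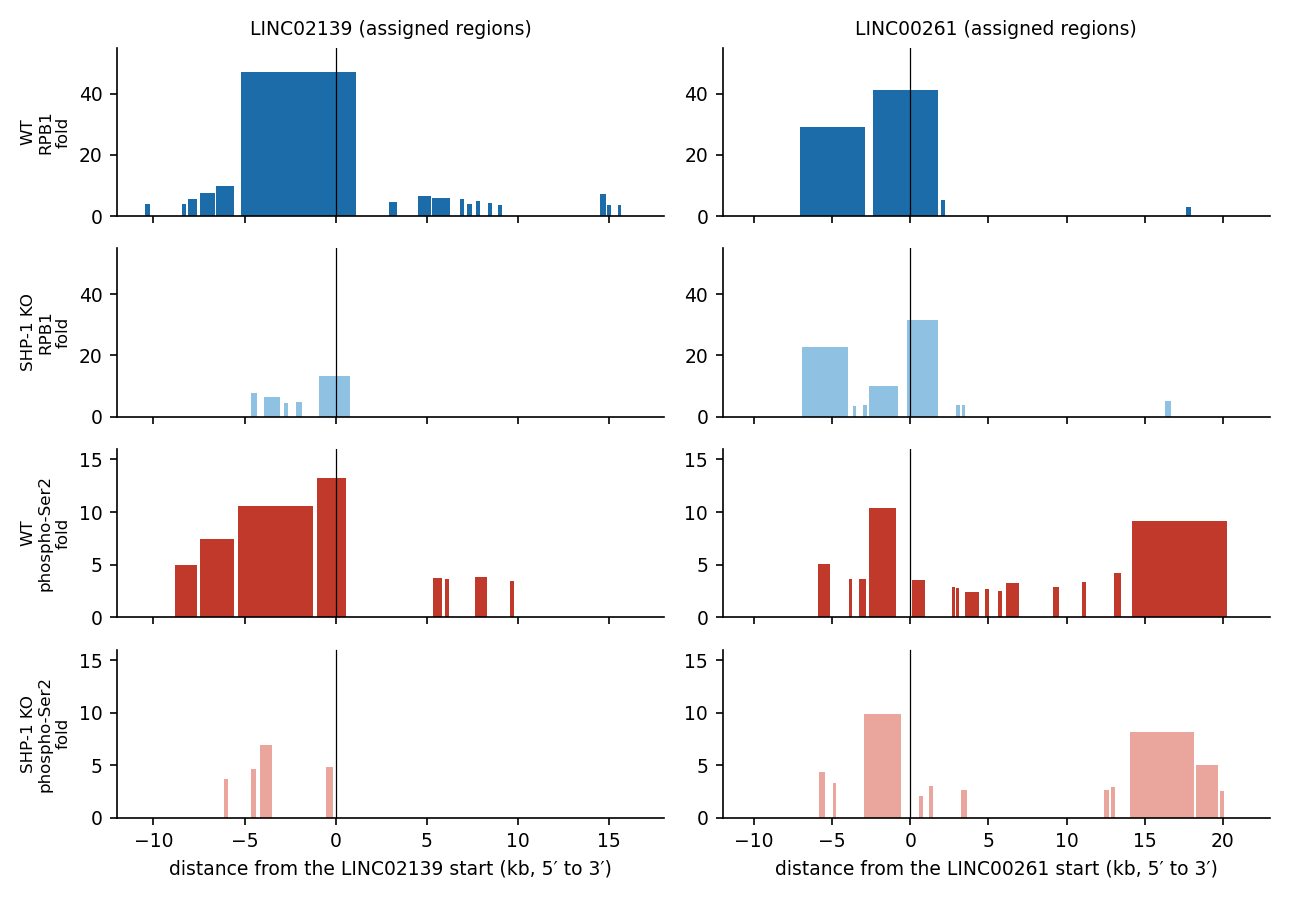
Regions assigned to LINC02139 (left) and LINC00261 (right) in the 4 lists (rows), drawn from their first to their last base as distance from the gene's start in kb (x axis, transcript direction to the right), with fold enrichment over input as height (y axis). The black line marks the start. The LINC02139 RPB1 promoter region is lower in KO cells (13.3 against 47.2), where 5 regions lie within the bounds of the WT promoter region. LINC00261 has a strong phospho-Ser2 region near its 3′ end in both lines. RPB1 regions assigned to LINC00261 over 40 kb past its start, 4 in WT and 1 in KO cells, lie outside the axis.

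In WT cells 57 of 383 LINC genes with RPB1 had 5 or more regions, beside 3013 of 14164 of all genes with RPB1. For phospho-Ser2 it was 87 of 258, beside 6341 of 12740. Both LINC shares were the lower, so runs of regions do not set LINC genes apart. LINC-PINT, a p53-induced lncRNA gene on chromosome 7, had the most RPB1 regions, 31 in WT and 36 in KO cells. Their highest enrichment was 21.2 and 17.2, and its phospho-Ser2 regions numbered 16 and 11 but covered more sequence, 44444 and 46332 bp against 29031 and 30795 bp for RPB1. LINC00963, a tumor-linked lncRNA gene on chromosome 9, had 27 and 19 RPB1 regions and 15 and 12 for phospho-Ser2, with the highest phospho-Ser2 enrichment at 12.2 and 18.2. LINC00673, also tumor-linked, had 18 and 20 RPB1 regions with all of them at a start or inside the gene. Its phospho-Ser2 regions numbered 31 in WT and 13 in KO cells, and inside the gene 25 and 9. LINC02323 had 18 and 16 RPB1 regions with a highest enrichment of 29.7 and 31.1. LINC00637 had 12 RPB1 regions in KO cells, 10 of them inside another transcript.

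Several of the longest runs of phospho-Ser2 lay mostly outside the LINC gene itself and had little RPB1. The run at LINC00673 did not, as all its regions were at a start or inside the gene. LINC01147 on chromosome 14 had 48 regions in WT cells, from 88025334 to 88137152, and 12 in KO cells, with no RPB1 region in either. Of its 48 regions, 3 were at a start, none inside the gene, 29 inside a transcript of another, noncoding gene and 16 distal, and 8 overlapped a KO region. LINC02027 on chromosome 3 had 20 phospho-Ser2 regions in WT cells, 8 inside the gene, at 2.62 to 5.59, and none in KO cells, also without RPB1. LINC02246, now named ASMER1, had 36 and 33, of which 31 and 30 lay inside NRIP1, the gene of a nuclear receptor corepressor. LINC01946 had 31 and 25, none at a start or inside the gene and 29 and 23 of them distal. In both lines this run included regions within 10 kb past the ends of the coding genes DPY30 and MEMO1. These last runs were similar in the 2 lines, with 27 of 36 and 27 of 31 WT regions overlapped by KO regions. LINC01291, beside the hexokinase gene HK2, had 22 and 18, of which 5 were at a start and 7 inside the gene in WT cells. LINC01465 had 21 and 24, of which 17 and 18 were inside other transcripts, and LINC01355, past the end of HNRNPR, had 17 and 21. LINC01474, by the aldehyde dehydrogenase gene ALDH1A1, had 22 and 15 with 15 and 12 inside a coding gene, and like LINC01134 it was picked after its values were seen. LINC01134, on the short arm of chromosome 1, had 10 RPB1 regions in WT and 1 in KO cells, and 12 and 3 for phospho-Ser2. That arm as a whole held 104 RPB1 LINC regions in WT and 66 in KO cells, against 925 and 780 elsewhere. For phospho-Ser2 it held 122 and 85, against 1143 and 777. The arm was not counted over all regions, so these numbers do not set LINC regions apart from others on it.

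**Figure D5:**
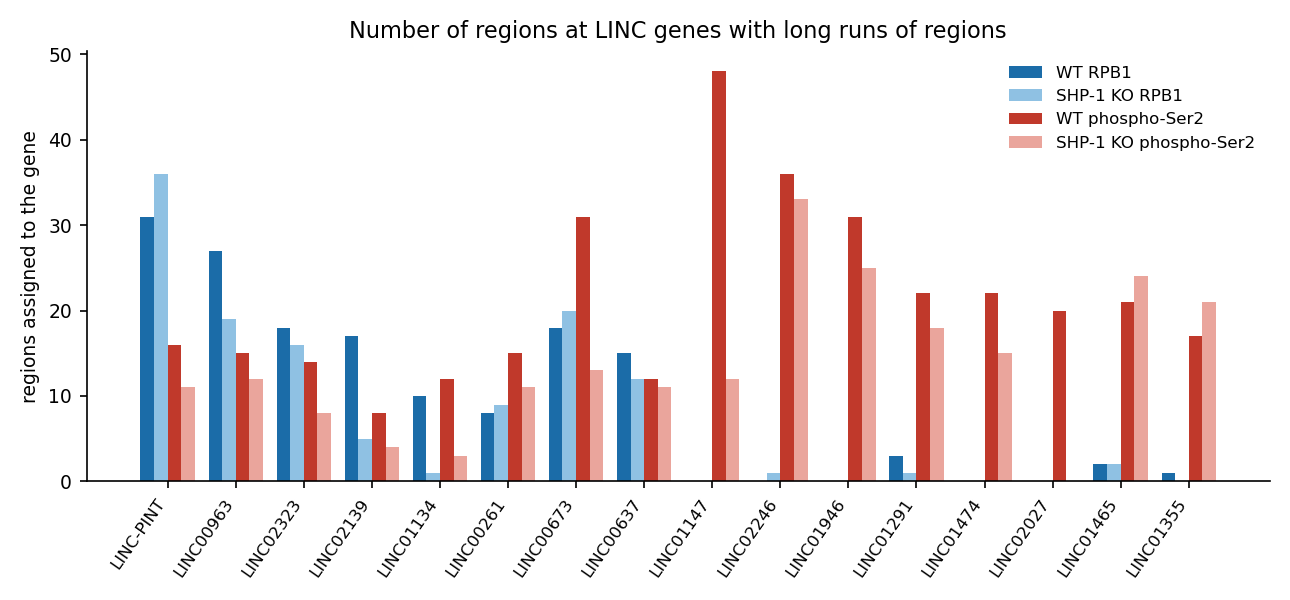
Number of regions assigned to each of 16 LINC genes with long runs (y axis), with 1 bar per list. LINC-PINT leads for RPB1 in both lines, while LINC01147 (48 in WT, 12 in KO) and LINC02027 (20 in WT, 0 in KO) have phospho-Ser2 regions without RPB1.

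LINC regions without an overlapping region in the other line were of moderate size. The 5 strongest WT-only RPB1 regions ranged from 11.0 to 14.9 and were at LINC00929, LINC02268, LINC00523, LINC01399 and LINC01991, with 2 of the 5 at promoters (LINC02268 and LINC01399, 11.9 and 11.4). The 5 strongest KO-only RPB1 regions ranged from 7.63 to 18.6. The highest was the promoter of LINCR-0002, at chr3:191425243-191425962, and LINC00476, LINC01909, LINC00470 and LINC00290 followed. LINCR-0002 also had a KO-only phospho-Ser2 promoter region at 5.09, so both antibodies listed this start in KO cells and neither did in WT cells. The strongest WT-only phospho-Ser2 regions ranged from 5.84 to 7.66, at LINC00243, LINC02054, LINC02210, LINC01635 and LINC01234, with none at a promoter. The KO-only ones ranged from 4.92 to 5.56, at LINC00662, LINC00963, LINCR-0002, LINC00862 and LINC02323.

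Of 18 LINC genes listed for their known links, 11 had RPB1 regions in WT and 9 in KO cells, and 9 and 7 had phospho-Ser2 regions. A promoter RPB1 region was present at 7 in WT and 4 in KO cells, and a promoter phospho-Ser2 region at 4 and 5. The 18 were picked for their links, so these counts describe them only. Among all LINC genes a promoter RPB1 region was present at 180 in WT and 164 in KO cells. Over all genes it was 12229 and 11827. Among the liver-linked genes, LINC00261 stood out as above. LINC00844 had 6 RPB1 regions in each line and 1 phospho-Ser2 region in each, none at its start. LINC01554 and LINC01485 each had 4 RPB1 regions in WT and 1 in KO cells and no phospho-Ser2, LINC01146 had 1 RPB1 region in WT cells alone, and LINC01093 had none. Among the stress-linked genes, LINC-PINT had the most regions, while LINC00473 and LINC-ROR had none. LINC01021 had none under that symbol because the lists name it PURPL, with 18 and 20 RPB1 and 10 and 7 phospho-Ser2 regions, which the counts above leave out. Among the tumor-linked genes, LINC00467 had 4 and 4 RPB1 and 4 and 3 phospho-Ser2 regions, and LINC00511 had 2 RPB1 regions and 1 phospho-Ser2 region in WT cells with none in KO cells. LINC00662 had 2 and 3 RPB1 and 13 and 12 phospho-Ser2 regions, with a longest phospho-Ser2 region of 10709 bp in WT and 12251 bp in KO cells. LINC01138 had 1 region in each list, LINC00665 had 1 phospho-Ser2 region in WT cells, and LINC01133 and LINC00152 had none.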

How the data were processed

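The data are ChIP-seq region lists for RPB1 and for phospho-Ser2 RPB1 from HepG2 cells with SHP-1 (WT) or without it (KO), 1 library each, and 2 input libraries have no list here. Samples were grouped by their labels. The authors used the MUGQIC pipeline, in which Trimmomatic trimmed the reads, BWA placed them on hg38 and MACS2 called narrow peaks in each library over the matching input (versions are not given in the sources used here). The deposited lists give the fold enrichment over input, a ratio, at the summit of each region, with the −log10 of its p-value and q-value, and a score derived from the q-value by the peak caller. The authors annotated each region with a feature and the gene of the nearest start. A deposited csaw table holds only the authors' comparison of KO with WT and was not used.

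Regions were read as listed, with no filter. Promoter regions carry the authors' class Promoter (at most 1000 bp from a start). Others were placed inside the assigned gene, inside another transcript, or distal. Overlap required 1 bp and was tested on simulated data. Coding starts, gene ends and hosts came from GENCODE release 44, and names and promoter windows from RefSeq GRCh38.p14. Coordinates are 1-based on hg38. Software was SciPy 1.17.1, NumPy 2.4.6 and pandas 2.3.3 under Python 3.11.15. The lists give no read counts, which leaves depth and its precision unknown.

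Genes named are the 10 with the highest WT promoter enrichment per antibody, the 5 with most regions per list, the 5 strongest regions of 1 line only per list, and 18 LINC genes with known links. Promoters past 2-fold and a few others were added after their values were seen. The members and lists were chosen with earlier results of these data known. Alternatives were a −log10 q of at least 5, symbols of LINC and digits alone, leaving out chromosome arm 1p or regions within 1 kb of a coding start, a reciprocal overlap of 50%, and regions at the LINC gene itself. The check of blood cell markers is not reported here.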

Additional observations from a re-analysis of the deposited data

How the results depend on the processing

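Of 108 recomputed values of 20 results, 73 stayed within the counting interval, or within 1.5 times for counts, and 35 moved further. None moved with symbols of LINC and digits alone, without chromosome arm 1p, or with promoters held to 1 kb, which selects the same regions. With a −log10 q of at least 5, LINC regions numbered 552 for KO RPB1 and 628 and 451 for WT and KO phospho-Ser2. Promoter shares became 30.5% and 33.0% for RPB1 and 19.9% and 22.8% for phospho-Ser2 in WT and KO cells. Sharing between the lines became 61.2% of WT and 83.0% of KO RPB1 regions. Sharing with the other antibody became 33.4% of WT RPB1, 38.9% of WT phospho-Ser2 and 40.4% of KO phospho-Ser2 regions. Without regions within 1 kb of a coding start, promoter shares were 20.7%, 25.0%, 12.7% and 15.0% for WT and KO RPB1 and WT and KO phospho-Ser2. With a reciprocal overlap of 50%, in the same order, sharing between the lines was 38.0%, 46.3%, 25.9% and 37.7%, and between antibodies 9.14%, 8.63%, 7.51% and 8.24%. With only regions at the LINC gene itself, an alternative added after the data were seen, regions numbered 467, 441, 505 and 364, 67.0% of WT RPB1 and 54.1% of WT phospho-Ser2 regions were shared between the lines, 46.7%, 43.5%, 44.8% and 48.4% met the other antibody, and RPB1 genes in WT only numbered 48. The causes were not tested beyond the fewer regions each alternative leaves.

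No paired analysis was possible because each antibody and cell type has 1 library and no test was run. Depth is unknown, so a missing region is not evidence of absent polymerase.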
